A study of Bos taurus with 12 samples.

Results

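Transcripts of the thrombospondins, cartilage oligomeric matrix protein (COMP) and the matrilins were examined in growth plate chondrocytes of the hypertrophic zone (HZ) and the reserve zone (RZ). The members were every probe set whose platform gene symbol was THBS1, THBS2, THBS3, THBS4, COMP, MATN1, MATN2, MATN3 or MATN4, each kept separate. This gave 14 probe sets of 6 genes out of 24016 probe sets that are not controls. They were 6 for THBS1, 2 each for THBS3, COMP and MATN1, and 1 each for THBS2 and THBS4. Where a gene has several, they are lettered from A, the brightest on average. The platform table names no probe set by the symbols MATN2, MATN3 or MATN4, and these 3 genes were not analysed here.

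The cells came from the distal metacarpus of male dairy cattle under 10 months of age, were freed from the matrix with collagenase for 4 hours and were parted by density. HZ is the lightest fraction and RZ the heaviest, and the labels name no genetic change or treatment. Each fraction was read on a one-colour array, in 6 numbered HZ and RZ pairs on 12 arrays. The labels call the pairs independent without saying whether each is 1 animal, and the p-values cover no more than the spread among the pairs, which may be partly technical. The number of arrays limits the precision. A density fraction is an enrichment, so a bulk array cannot separate fewer cells of a type from less RNA per cell.

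Thrombospondins are calcium-binding glycoproteins that assemble into multimers and link cells, collagens and growth factors in the matrix. THBS1 and THBS2 form trimers and restrain blood vessel growth, and THBS1 can release latent TGF-beta. THBS3, THBS4 and COMP form pentamers. COMP binds cartilage collagens, and its mutations cause pseudoachondroplasia and multiple epiphyseal dysplasia in humans. Matrilins are adaptor proteins with von Willebrand A domains that connect collagen fibrils, proteoglycans and COMP, and MATN1 is the form first known as cartilage matrix protein.

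Of the 14 probe sets, 2 were lower in HZ, 0 were higher and 12 did not pass (limma with the pair as a block, Benjamini-Hochberg adjusted p under 0.05 over all probe sets). Those that fell were 1 of the 2 THBS3 probe sets and 1 of the 2 MATN1 probe sets. Over all 24016 probe sets, 6.22% passed, 2.96% as lower in HZ and 3.26% as higher. An unadjusted p under 0.05 was found for 6 of the 14, and for 22.2% of all probe sets. The median difference of the 14 was -0.42 on the scale of log2(signal + 16), HZ minus RZ, against -0.01 over all probe sets, and 9 estimates were below 0. All differences below are on this scale, which understates the change of dim probe sets. Probe sets of 1 gene share their RNA and are not replicates. Signals are in arbitrary units that differ between probe sets, so the signal of each member is compared between zones only with itself.

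**Figure D1:**
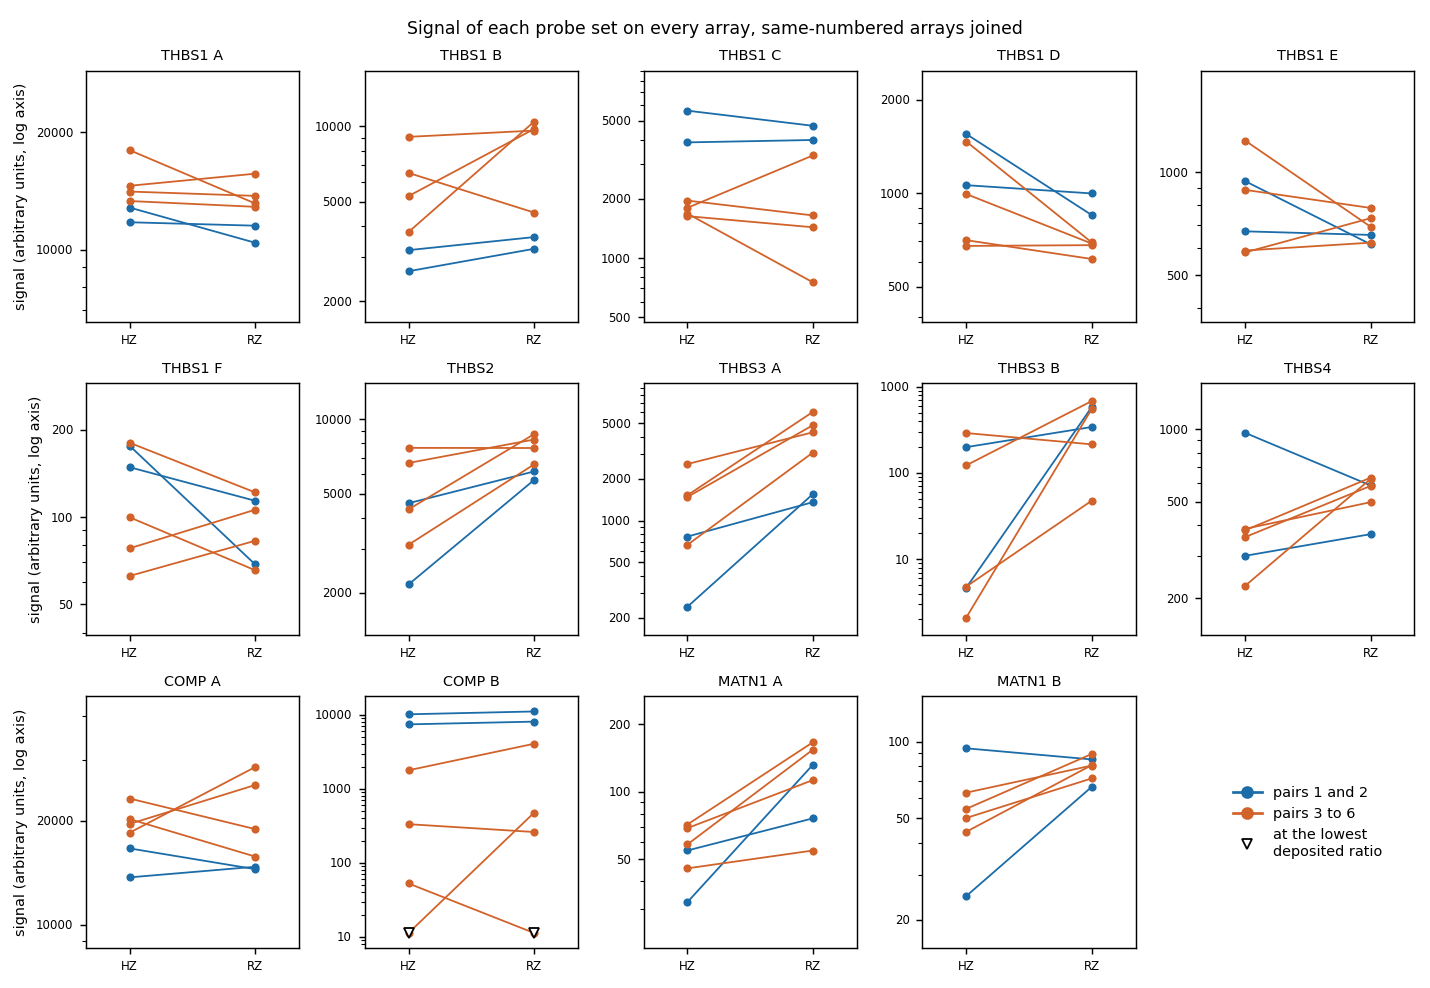
Signal of the 14 probe sets on every array (log axis, arbitrary units), HZ left and RZ right, with same-numbered arrays joined, pairs 1 and 2 in blue and pairs 3 to 6 in orange. Open triangles mark arrays at the lowest deposited ratio, where the signal is an upper limit. All 6 lines of THBS3 A and of MATN1 A are lower at HZ.

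THBS3, a pentameric thrombospondin of developing cartilage and bone whose loss speeds some steps of skeletal maturation in mice, gave the clearest difference. THBS3 A read signals from 240.0 to 2546 in HZ, with a median of 1121, and from 1355 to 6030 in RZ, with a median of 3689. HZ was the lower array in all 6 pairs, although the zones overlapped, and 3 HZ arrays lay below the lowest RZ array. For comparison, 7.15% of all probe sets were lower in HZ in all 6 pairs, and 1.21% had every HZ signal below every RZ signal. No member had zones apart in that way. The difference was -1.67 ± 0.25 (SE, n = 6 pairs, limma adjusted p = 0.00784), 3.19-fold lower in HZ on this scale. By pair it was -2.61, -0.81, -0.75, -2.18, -1.70 and -1.98 from pair 1 to pair 6, so pairs 2 and 3 moved least.

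The deposited ratios of pairs 1 and 2 moved in coarser steps than those of pairs 3 to 6, so results are also given for these 2 sets of arrays. The fall of THBS3 A was as large in both, -1.71 for pairs 1 and 2 against -1.65 for pairs 3 to 6 (limma adjusted p = 0.348 and 0.0326). It also held with each pair left out, at -1.86 to -1.48 (limma adjusted p = 0.00853 to 0.0333). Its level differed between pairs as well as between zones: pairs 1 and 2 read 240.0 to 1548, against 669 to 6030 in pairs 3 to 6. With the pairing left out the call was lost (limma adjusted p = 0.0983), and it was also lost without pairs 3 and 4 (limma adjusted p = 0.0543, difference -1.77).

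The other probe set, THBS3 B, had its lowest values in HZ too, but did not pass. Its HZ signals ran from 2.10 to 290.1 with a median of 63.7, and its RZ signals from 47.6 to 681 with a median of 446. HZ-1, HZ-3 and HZ-6 were nearly dark, at 4.67, 2.10 and 4.81, whereas HZ-5 at 290.1 was above its RZ partner at 215. The difference was -2.35 ± 0.65 (SE, n = 6 pairs, limma adjusted p = 0.0650), negative in 5 of 6 pairs. By pair it was -4.85, -0.73, -4.97, -2.33, 0.41 and -1.61, an SD of 2.18. Only 2 of the other 24015 probe sets had a larger SD of pair differences. Both THBS3 probe sets were thus lower in HZ in pairs 1 to 4 and 6, while pair 5 gave -1.70 at the first and 0.41 at the second.

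**Figure D2:**
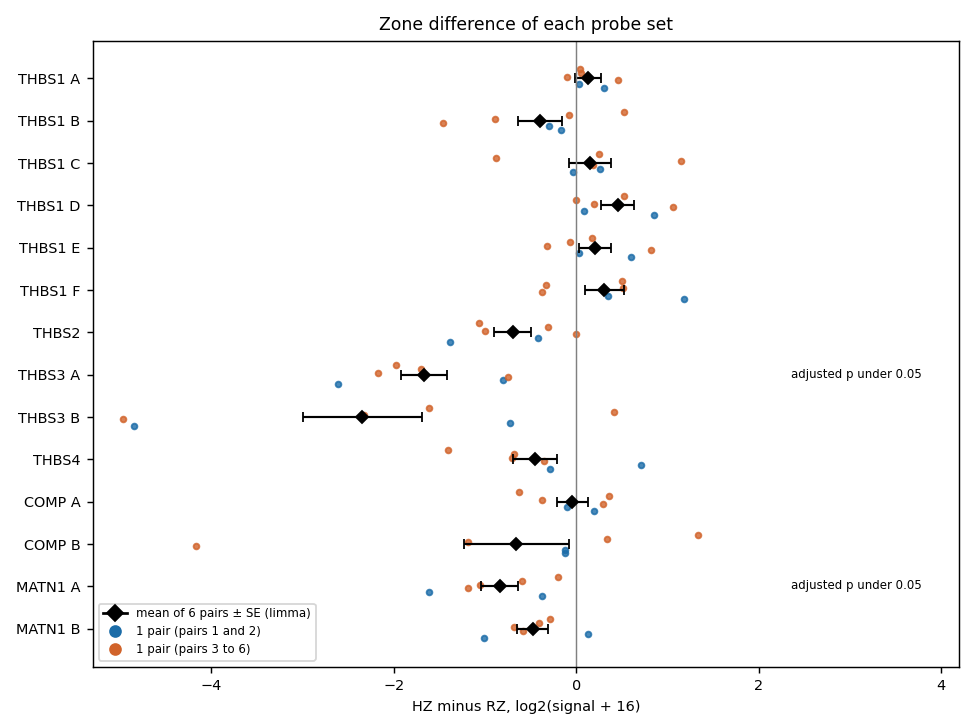
Difference between HZ and RZ of each of the 14 probe sets (horizontal axis, log2(signal + 16), HZ minus RZ). Circles are single pairs, blue for pairs 1 and 2 and orange for pairs 3 to 6, and diamonds with bars are the limma mean ± SE. The 2 THBS3 diamonds lie farthest left at -1.67 and -2.35, and the 6 THBS1 diamonds lie between -0.40 and 0.45.

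THBS4, a pentameric relative known from tendon, muscle and nerve, did not pass. Its single probe set read 225 to 967 in HZ, with a median of 369.6, and 368 to 630.0 in RZ, with a median of 584. HZ was lower in 5 of 6 pairs and higher in pair 2, where HZ-2 read 967. The difference was -0.45 ± 0.24 (SE, n = 6 pairs, limma adjusted p = 0.305). For pairs 1 and 2 it was 0.21 and for pairs 3 to 6 -0.78, and the term for that contrast did not pass (limma adjusted p = 0.965, where 0.00833% of all probe sets passed).

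COMP, an abundant pentamer of cartilage matrix, showed no zone difference that passed at either probe set. The brighter, COMP A, read 13718 to 23159 in HZ, with a median of 19014, and 14484 to 28548 in RZ, with a median of 17328. Only 14 probe sets were brighter on average. Its difference was -0.04 ± 0.17 (SE, n = 6 pairs, limma adjusted p = 0.925), with 3 pairs in each direction. Whether so bright a probe set can follow a change in RNA was not tested.

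The second probe set, COMP B, varied far more between pairs than between zones. On pairs 1 and 2 it read 10210.4 and 7464 in HZ and 11146 and 8125 in RZ. On pairs 4 and 5 it read 1788 and 334 in HZ and 4081 and 262 in RZ. Pair 3 gave at most 11.3 in HZ and 476.5 in RZ, and pair 6 gave 52.8 in HZ and at most 11.3 in RZ. HZ-3 and RZ-6 were deposited at the lowest ratio of the table, 0.01, so their signals are upper limits.

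The zone difference of this COMP probe set was -0.66 ± 0.57 (SE, n = 6 pairs, limma adjusted p = 0.561), negative in 4 of 6 pairs. It rested on pair 3, at -4.17, and was 0.05 without that pair. Its pair means, in contrast, spanned 7.94 on the log2 scale, and 0 of the other 24015 probe sets spanned more (the median probe set spanned 0.80). On the same arrays the bright COMP probe set had pair means within 0.69 of each other. The dim readings of the second probe set in pairs 3, 5 and 6 were therefore not shared by the first.

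**Figure D3:**
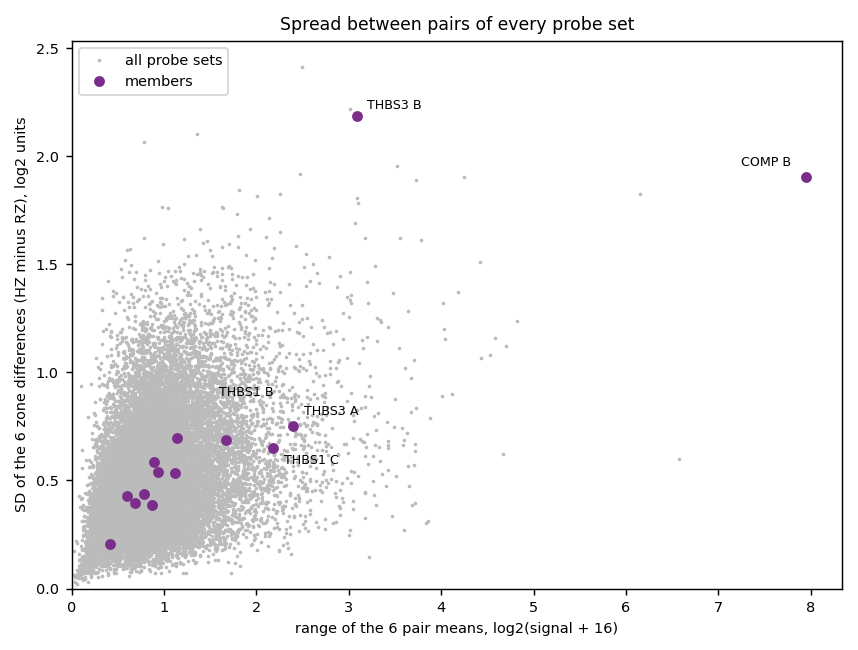
Spread between pairs of all 24016 probe sets (grey) and the 14 members (purple). The horizontal axis is the range of the 6 pair means of log2(signal + 16) and the vertical axis the SD of the 6 zone differences (HZ minus RZ, log2 units). COMP B lies farthest right at 7.94, and THBS3 B lies near the top at 2.18.

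THBS1, the trimer that restrains blood vessel growth and binds CD36, CD47 and integrins, passed at none of its 6 probe sets. The brightest, THBS1 A, read 11748 to 17979 in HZ, with a median of 13701, and 10409.7 to 15652 in RZ, with a median of 12999. It gave 0.13 ± 0.14 (SE, n = 6 pairs, limma adjusted p = 0.666) and was higher in HZ in 5 of 6 pairs. With only 88 probe sets brighter on average, whether it can follow a change in RNA was not tested either. THBS1 D had the smallest p of the 6, with 677 to 1553 in HZ (median 1029) and 615 to 999.6 in RZ (median 692). Its difference was 0.45 ± 0.18 (SE, limma adjusted p = 0.176), positive in 5 of 6 pairs, and 3 HZ arrays were above every RZ array.

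A further 3 THBS1 probe sets gave small positive estimates, 0.15 for THBS1 C, 0.20 for THBS1 E and 0.31 for THBS1 F, each positive in 4 of 6 pairs (limma adjusted p = 0.762, 0.564 and 0.456). THBS1 B pointed the other way, with 2641 to 9087 in HZ (median 4529) and 3245 to 10439.9 in RZ (median 7077). Its difference was -0.40 ± 0.24 (SE, limma adjusted p = 0.377), negative in 5 of 6 pairs. Its lowest pair values were -1.46 in pair 3 and -0.89 in pair 4, and without these pairs the estimate was -0.01. The gene therefore gave 5 estimates above 0 and 1 below, and its median was 0.18.

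At 3 THBS1 probe sets the 2 sets of arrays did not overlap, whatever the zone. At THBS1 C all arrays of pairs 1 and 2 read 3888 to 5643, against 752 to 3334 in pairs 3 to 6. At THBS1 B the order was turned, with 2641 to 3614 in pairs 1 and 2 and 3788 to 10439.9 in pairs 3 to 6. At THBS1 A pairs 1 and 2 were again lower, at 10409.7 to 12811 against 12870.2 to 17979. With COMP B this made 4 of the 14 members, against 4.52% of all probe sets.

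THBS2, the other vessel-restraining trimer, which also guides collagen fibril assembly in mice, stood lower in HZ in 5 of 6 pairs without passing. Its single probe set read 2162 to 7665 in HZ, with a median of 4464, and 5689 to 8699 in RZ, with a median of 7116. Of the HZ arrays, 4 were below every RZ array, and pair 3 showed no difference (0.0018). The estimate was -0.70 ± 0.20 (SE, n = 6 pairs, limma adjusted p = 0.0735), with -0.91 for pairs 1 and 2 and -0.60 for pairs 3 to 6. Without pair 3 it was -0.84 and passed (limma adjusted p = 0.0451).

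MATN1, which joins collagen fibrils to aggrecan in cartilage, fell at 1 of its 2 probe sets. MATN1 A read 32.3 to 71.5 in HZ, with a median of 56.6, and 54.8 to 166 in RZ, with a median of 122. HZ was lower in all 6 pairs, and 2 HZ arrays were below every RZ array. The difference was -0.84 ± 0.20 (SE, n = 6 pairs, limma adjusted p = 0.0404), 1.79-fold lower in HZ on this scale. It was -0.997 for pairs 1 and 2 and -0.76 for pairs 3 to 6, largest in pair 2 (-1.61) and smallest in pair 6 (-0.20).

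The MATN1 call was close to the threshold. Leaving out 1 pair at a time gave -0.97 to -0.69 (limma adjusted p = 0.0446 to 0.111), and it passed only without pair 6. MATN1 B read 24.7 to 94.2 in HZ, with a median of 52.3, and 66.4 to 89.4 in RZ, with a median of 80.7. Here 5 of 6 HZ arrays were below every RZ array and HZ-2 was above them all. Its difference was -0.48 ± 0.17 (SE, limma adjusted p = 0.136), negative in 5 of 6 pairs. Both MATN1 probe sets read near the array median of 96.7, where the added constant of 16 shrinks differences.

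Control probe sets at both ends of 2 transcripts give a measure of RNA quality. The log2 ratio of the 3′ over the 5′ actin control averaged 3.03 ± 0.685 on HZ arrays and 2.34 ± 0.453 on RZ arrays (SD, n = 6 each; p = 0.0625, two-sided exact permutation of signs within pairs, which cannot go below 0.03125). By pair, HZ minus RZ of that ratio was 1.55, -0.04, 0.65, 1.32, 0.61 and 0.09 in pairs 1 to 6, against THBS3 A differences of -2.61, -0.81, -0.75, -2.18, -1.70 and -1.98. For GAPDH the ratio averaged 0.519 ± 0.651 on HZ arrays and 0.103 ± 0.285 on RZ arrays (SD, n = 6 each). The same two-sided exact permutation of signs within pairs gave p = 0.125. Its HZ minus RZ values were 0.11, 0.18, 1.27, 0.87, 0.31 and -0.26 in pairs 1 to 6. The THBS1 B differences were -0.17, -0.30, -1.46, -0.89, -0.08 and 0.52. With the 2 controls exchanged the order of pairs differed. Pair 3, with the largest GAPDH value, had the smallest fall of THBS3 A (-0.75). Pair 1, with the largest actin value, gave -0.17 at THBS1 B. Other members are not set beside these ratios here. The part of RNA quality in these differences was not tested.

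The zone labels were checked with marker genes, each taken at its brightest probe set. Of 8 hypertrophic markers 5 rose in HZ and 0 fell, and of 5 reserve markers 4 fell and 0 rose. Over the 9155 named genes 3.56% fell and 4.17% rose. The hypertrophic markers that did not pass were SPP1, IBSP and COL10A1, at 0.31, 0.14 and 0.11 (limma adjusted p = 0.215, 0.715 and 0.755). A second IBSP probe set rose by 2.20 (limma adjusted p = 0.00125), and a second ALPL probe set did not pass. The reserve marker GDF5 did not pass. The lists were chosen with earlier results of these data known, so this check is not independent. None of 6 general chondrocyte markers passed in either direction.

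Markers of other cells that the fractions could hold are given here because some moved with the zone. The sums below mix probe sets whose units differ, so the brightest genes weigh most. Of 9 genes of tendon or perichondrial fibroblasts 0 passed. Their summed signal was 10268 to 17232 in HZ and 16791 to 30716 in RZ, lower in HZ in 5 of 6 pairs. FMOD, also listed among the matrix partners of COMP and the matrilins, was most of this sum. It averaged 10118 on HZ arrays and 13794 on RZ arrays (limma adjusted p = 0.161). The smallest adjusted p of the 9 were those of COL1A2 at -1.12 and COL1A1 at -1.05 (limma adjusted p = 0.0515 and 0.105). They were higher in HZ in 0 and 1 of 6 pairs. A second probe set gave -1.07 for COL1A2 and 0.07 for COL1A1 (limma adjusted p = 0.0684 and 0.959). The tendon genes TNMD and KERA averaged signals under 16. Of 6 endothelial genes, PECAM1 fell and 5 did not pass, with summed signals of 192 to 529 in HZ and 489 to 757 in RZ, lower in HZ in 6 of 6 pairs, and VWF averaged under 16. Of 8 macrophage genes 5 rose and 0 fell, with sums of 1385 to 3043 in HZ and 988 to 2212 in RZ, and ITGAM averaged under 16. CD14, one of the other 3 and the brightest of the 8, averaged 564 on HZ arrays and 1004 on RZ arrays without passing. Its second probe set fell by 1.02 (limma adjusted p = 0.0254). Both osteoclast genes measured, CTSK and ACP5, rose, with sums of 7099 to 9792 in HZ and 2262 to 5404 in RZ. The dimmer probe sets of ACP5 gave 0.79 and 0.49 without passing (limma adjusted p = 0.0745 and 0.265). Both platelet genes measured, PF4 and ITGA2B, did not pass, with sums of 43.4 to 143 in HZ and 60.5 to 239.8 in RZ. Of 4 granulocyte genes, CATHL1, a cathelicidin, fell by 1.85 (limma adjusted p = 0.0327) and 3 did not pass, with sums of 325 to 1626 in HZ and 438 to 8311 in RZ, lower in HZ in 6 of 6 pairs. Of 3 osteoblast genes, DMP1 rose by 1.34 (limma adjusted p = 0.0417) and 2 did not pass, with sums of 697 to 1201 in HZ and 432 to 7563 in RZ, lower in HZ in 4 of 6 pairs. None of 3 erythroid, 2 articular surface or 3 muscle and nerve genes passed at its brightest probe set. Of the 8 probe sets of the muscle gene MYH1, 1 dimmer one rose by 0.80 (limma adjusted p = 0.0291) and the others did not pass. The part of these cells in the THBS and MATN1 values was not tested.

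Among receptors and ligands of the members, few genes passed. Over all named genes, each at its brightest probe set, 4.17% rose and 3.56% fell. Of 7 measured thrombospondin receptors, ITGB3, the integrin chain that pairs with ITGAV, rose by 1.46 ± 0.19 (SE, limma adjusted p = 0.0045), 0 fell and 6 did not pass. HZ arrays averaged 5652 ± 1623 and RZ arrays 2000.0 ± 386 (SD, n = 6 each), and all 6 pairs had this direction. Its other 3 probe sets gave 0.69, 0.95 and 0.75 without passing. ITGB3 is also made by osteoclasts. The receptor CD47 gave -0.54 and the chaperone CALR, which presents THBS1 to LRP1 at the cell surface, -0.70 (limma adjusted p = 0.123 and 0.144).

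Of 13 matrix partners of COMP and the matrilins, COL12A1 fell, 0 rose and 12 did not pass at the brightest probe set of each gene, with a median of 0.02 against -0.01 over all named genes. COL12A1, a fibril-associated collagen that COMP binds, fell by 0.76 ± 0.17 (SE, limma adjusted p = 0.0280), and a second of its 3 probe sets fell by 0.85 (limma adjusted p = 0.0142). COL11A1, a fibrillar cartilage collagen, did not pass at its brightest probe set, at 0.17, but 1 of its other 6 rose by 0.76 (limma adjusted p = 0.0189), higher in HZ in 6 of 6 pairs. COL6A1 and BGN gave -0.47 and -0.49 (limma adjusted p = 0.0958 and 0.139).

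Matrix proteases went both ways. Of 8 measured, 1 rose, 3 fell and 4 did not pass, where 4.17% of all named genes rose and 3.56% fell. MMP13, the collagenase of hypertrophic cartilage, gave 2.04 ± 0.23 (SE, limma adjusted p = 0.00205), while ADAMTS4, HTRA1 and MMP2 gave -1.68 ± 0.18, -1.66 ± 0.20 and -1.66 ± 0.33 (SE). ADAMTS4 and HTRA1 can cut COMP. The THBS1-cutting protease ADAMTS1 gave 0.72 (limma adjusted p = 0.0533) and MMP9 0.97 (limma adjusted p = 0.248). Of 5 TGF-beta ligands and latent binding proteins, TGFB1 fell by 0.71 ± 0.16 (SE, limma adjusted p = 0.0294) and 4 did not pass, among them TGFB2 at -0.49 (limma adjusted p = 0.0695).

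Of 6 further matrix glycoproteins, only some of them with thrombospondin repeats or von Willebrand A domains, 3 fell, 0 rose and 3 did not pass. Their median was -0.64, against -0.01 over all named genes, of which 3.56% fell and 4.17% rose. Only 6 of the 12 listed genes were measured. TNC, a multimeric glycoprotein of dense connective tissue that has neither domain, averaged 933 ± 383 on HZ arrays and 2398 ± 784 on RZ arrays (SD, n = 6 each), a difference of -1.41 ± 0.20 (SE, limma adjusted p = 0.0057). SPON1, which carries thrombospondin repeats, gave -1.19 ± 0.20, and VIT, which carries a von Willebrand A domain, -1.12 ± 0.22 (SE, limma adjusted p = 0.0106 and 0.0198). Each was lower in HZ in 6 of 6 pairs. The other probe sets of TNC and SPON1, both dim, gave 0.07 each and did not pass. Among the other 3 genes, TNXB gave 0.25 and SPON2 -0.15.

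Of 9 endoplasmic reticulum proteins that fold or retain secreted matrix proteins, 0 passed, with a median of -0.33 against -0.01 over all named genes. Of 2 measured transcription factors, NFIA and NFIB, 0 passed. At the brightest probe set of each gene, the lowest p among the folding proteins were those of DNAJC3 at -0.66 and CANX at -0.51 (limma adjusted p = 0.105 and 0.111). HSPA5, another of them, gave -0.11 at its brightest probe set and -0.86 and -0.64 at its others (limma adjusted p = 0.755, 0.0640 and 0.128).

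In the RefSeq gene table THBS3 lies next to MTX1, a mitochondrial import protein, on one side, and beyond the microRNA gene MIR92B to MUC1, a membrane mucin, on the other. MUC1 fell by 1.36 ± 0.23 (SE, limma adjusted p = 0.0112), with averages of 43.3 ± 29.5 on HZ arrays and 129 ± 49.3 on RZ arrays (SD, n = 6 each), and no pair went the other way. MTX1 gave -0.36 and -0.45 at its 2 probe sets and KRTCAP2 -0.15, none of which passed (limma adjusted p = 0.299, 0.0998 and 0.703).

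**Figure D4:**
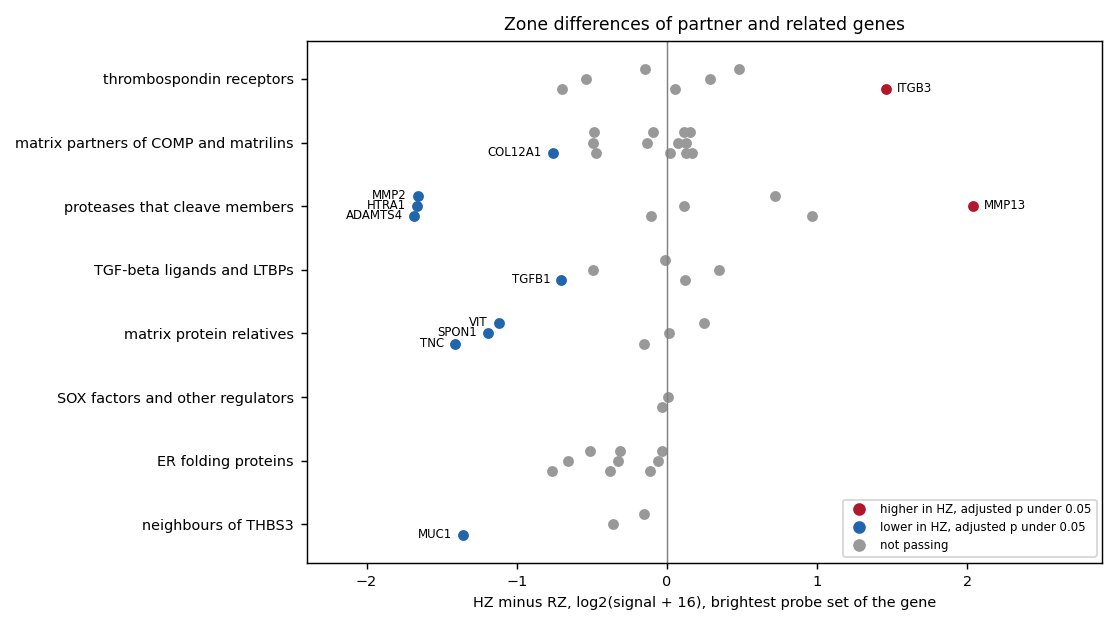
Differences between HZ and RZ of genes related to the members (horizontal axis, log2(signal + 16), HZ minus RZ), 1 circle per gene at its brightest probe set, offset vertically only for legibility. Red and blue circles passed as higher and lower in HZ and are named, and grey ones did not pass. ITGB3 and MMP13 are the only red circles, at 1.46 and 2.04.

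The genes whose profile was most like that of THBS3 A over the 12 arrays, among 9149 genes, were RBMX, NPC1, SLC2A1, RCN3 and ANGPTL2, with Pearson r of 0.97 to 0.96. The 12 arrays share pairs, zones and sets of arrays, and the values describe these arrays alone. Genes picked for likeness, over both zones, to a probe set that fell tend to fall too. Their calls here are therefore not separate results. ANGPTL2, a secreted angiopoietin-like protein, fell by 1.03 ± 0.21 (SE, limma adjusted p = 0.0220), averaging 4361 ± 2125 on HZ arrays and 8138 ± 2775 on RZ arrays (SD, n = 6 each). RCN3, NPC1 and RBMX also passed, at -0.86, -0.73 and -0.63, and SLC2A1, a glucose transporter, gave -0.59 (limma adjusted p = 0.126). For MATN1 A the nearest were LOC511425, REG4, ATF4, SERPINB8 and MARK1, with r of 0.88 to 0.82. Of these LOC511425 and MARK1 passed, at -0.79 and -0.83, and the other 3 did not.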

How the data were processed

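The authors deposited a linear ratio for each of 24128 probe sets (112 are controls) on every array. How arrays were scanned, summarised and normalized is not stated in the labels. Per the labels, total RNA was converted to biotin-labelled cRNA. For 90.8% of probe sets the median ratio over the arrays is 1, and the other 9.23% have a fixed divisor. Before this division the values of an array are taken to be whole multiples of a step. That gave each probe set's divisor and thereby a signal for all 24128, with a median of 96.7. The unit assumes that 1 step is 0.1 on average over arrays, which no source states, and it sets how strongly the added constant of 16 shrinks dim differences. Values at the lowest ratio, 0.01, are upper limits. The recovery returned the right divisor for 100% of 4000 simulated probe sets. These were built with the steps and divisors that the recovery assumes, so they cannot test that model or the unit. The fit was also tried on simulated data.

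The planned intensities were replaced by these signals. Tests used limma 3.58.1 in R 4.3.3 on log2(signal + 16) of 24016 probe sets with the pair as a fixed block (5 residual degrees of freedom). The block follows the pairs the series description names. Deviations from the zone means correlated within every pair, at 0.124 to 0.447. Arrays of different pairs were not compared in this way, so these values do not test the pairing. Pairs 1 and 2 differ from pairs 3 to 6 in step size (0.0237 to 0.0318 against 0.00884 to 0.0110), so they were also fitted apart; no label names a batch. Symbols came from the platform table, and all 6 member genes matched the RefSeq table of assembly ARS-UCD2.0 by Entrez identifier.

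Members and gene lists were chosen with earlier results of these data known. Named genes were all members, the 5 genes most correlated with each passing member, and from each list those that passed plus up to 2 others with the smallest adjusted p. Other settings tried were the constant, the deposited ratio, quantile normalization, no block, a filter on the dimmest 30%, trended robust variances, each pair left out, each of these sets alone, and pairs 3 and 4 left out.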

Additional observations from a re-analysis of the deposited data

Results flagged for a closer look

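One member value stood far from its group. THBS4 read 967 on HZ-2, and its gap to the next HZ array, on the scale of log2(signal + 16), was 0.634 of the range of the 6 HZ arrays, just above the limit of 0.625. In all, 42 groups of 6 values were examined, and chance alone marks about 1 in 20. HZ-2 is also the array that made THBS4 higher in HZ in pair 2, and without pair 2 the difference was -0.68 (limma adjusted p = 0.0969).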

How the results depend on the processing

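Over all probe sets 1494 passed, and leaving out 1 pair gave 557 to 1540. The count was 583 with a constant of 1, 478 from the deposited ratio, 831 with no replicate block, 336 in pairs 3 to 6, 139 without pairs 3 and 4, and 0 in pairs 1 and 2 (limma, 2931 with an unadjusted p under 0.05). It was higher, at 1667 with quantile normalization, 2121 with the dimmest 30% left out, 2137 with a constant of 64 and 2218 with trended robust variances. The share of calls that were higher was 52.3% in the main setting, 65.9% from the deposited ratio, 63.1% with a constant of 1, 56.1% with quantile normalization and 60.8% with no replicate block. It was 76.8% in pairs 3 to 6, 65.5% without pairs 3 and 4, and 41.9% to 61.6% on leaving out 1 pair, lowest without pair 3. Calls were more often lower with a constant of 64 (47.6%), the dimmest 30% left out (48.0%) and trended robust variances (47.4%). Among the 14 members 2 passed, with 1 to 2 on leaving out a pair. There was 1 with a constant of 1, from the deposited ratio and in pairs 3 to 6, each time THBS3 A. With no replicate block, in pairs 1 and 2 alone, and without pairs 3 and 4, 0 passed. With the dimmest 30% left out, and with trended robust variances, 4 passed, THBS2 and THBS3 B being added, and with a constant of 64 or quantile normalization 3 passed, THBS2 being added. Without pair 5 THBS3 B passed and MATN1 did not. Leaving out 1 pair moved THBS1 C over -0.0462 to 0.359, COMP A over -0.122 to 0.0752 and COMP B over -1.05 to 0.0469, each across 0. THBS1 C was -0.10 and COMP B 0.35 without pairs 3 and 4, and THBS4 was 0.21 and COMP A 0.0487 in pairs 1 and 2. None of these had passed in the main setting. The other settings of single probe sets kept their direction, 14 of them losing a call and 8 gaining one; beyond what fewer pairs imply, the cause was not tested.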

Other observations

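The spread of COMP B and THBS3 B was also computed with other added constants, chosen after the data were seen. The pair means of COMP B spanned 8.69 on the log2 scale with a constant of 1 and 6.84 with 64, and 0 of the other 24015 probe sets spanned more under either. The SD of the pair differences of THBS3 B was 3.16 with a constant of 1, 2.18 with 16 and 1.48 with 64, exceeded by 2, 2 and 8 probe sets. That of COMP B was 2.49, 1.90 and 1.27, exceeded by 112, 7 and 24. With a constant of 16 the other probe set of each gene varied less on the same arrays, with an SD of pair differences of 0.75 at the other THBS3 probe set and a range of pair means of 0.69 at the other COMP probe set.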
